A study of Ovis aries with 18 samples.

Results

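UCP1 encodes uncoupling protein 1, a carrier of the inner mitochondrial membrane that lets protons return to the matrix without driving ATP synthesis, so that the energy of respiration is released as heat. The protein is the hallmark of brown adipocytes. It is activated by the fatty acids that lipolysis releases after noradrenaline binds its receptors, and the perirenal fat of the newborn lamb relies on it to keep the animal warm after birth. The gene was taken with every SNP that the deposited table assigns to it, which gave 1 of 5810 genes and 5 of 24355 SNPs. The choice used the gene name and no read count.

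RNA-Seq reads came from perirenal adipose tissue (PRAT) of 18 singleton fetuses of pure bred merino sheep, 16 female and 2 male, at day 132 of gestation. All were wild type and untreated, their dams were fed to maintenance, and they had 1 sire and unrelated dams, so they formed a single condition. The comparison within each animal was between its own alleles. At a SNP where an animal was called heterozygous (0/1), the fraction of its reads that carried the reference allele (the reference share) was set against 0.5, and a departure from 0.5 is called allelic imbalance (AI). The reads at all SNPs of a library totalled 2970824 to 5334585. The libraries were multiplexed and spread over several lanes, and since the lane of each library is not given in the sources used here, values within lanes could not be computed. RS929, labelled female, was heterozygous at 29.1% of chromosome X SNPs, against 25.4% and 32.4% in the males and at least 54.1% in the other females.

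The 5 UCP1 SNPs lay on chromosome 17 of the Oar v3.1 assembly, over 5975 bp, and all were in coding sequence. In 5′ to 3′ order along the assembly they are called SNP 1 to SNP 5 here, and each is written as the reference base, the position on the chromosome and the alternate base. They are shown because each is a separate reading of the same pair of alleles.
SNP 1: G16847694A, missense
SNP 2: G16848638A, missense
SNP 3: C16848697T, synonymous
SNP 4: G16851106A, synonymous
SNP 5: G16853669A, missense
All 5 were transitions, with 3 missense and 2 synonymous. SNPs 2 and 3 were 59 bp apart, which is less than the 100 bp read length, so that a single read could count at both. The other SNPs were read from other parts of the transcript, although read pairs can join them. In the RefSeq annotation of a later sheep assembly the UCP1 gene interval overlaps that of ELMOD2, and the library kit is not described as keeping strand, so reads of an overlap could not be assigned to one of the genes.

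The genotype calls formed 5 patterns among the 18 animals. RS902, RS917, RS920, RS929, RS940 and RS947 were heterozygous at all 5 SNPs, and RS943 at SNPs 1 to 4 with the alternate allele in both copies at SNP 5. RS903 was heterozygous at SNPs 3 and 5, and RS919, RS926 and RS969 at SNP 5 alone. The other 7 animals were homozygous throughout, with the reference allele at SNPs 1 to 4 and the alternate allele at SNP 5. No animal was homozygous for the reference allele at SNP 5, or for the alternate allele at SNPs 1 to 4. Altogether 11 animals were heterozygous at 1 or more SNPs, which gave 39 allele shares, each from 5153 to 16008 reads. The calls were made from the same RNA reads as the counts. In animals called homozygous, the allele that was not called held 0.0428% to 0.149% of the reads at the 5 SNPs, and at most 0.362% in a single animal.

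UCP1 alleles were expressed close to equally over all heterozygous fetuses, but the fetuses differed from each other. The reference allele held 50.4%, 52.3%, 51.5%, 53.7% and 50.6% of the summed reads at SNPs 1 to 5. The mean share over animals was 0.504 ± 0.0273 (SD, n = 7) at SNP 1, 0.522 ± 0.0372 (n = 7) at SNP 2, 0.514 ± 0.0346 (n = 8) at SNP 3, 0.536 ± 0.0361 (n = 7) at SNP 4 and 0.506 ± 0.0355 (n = 10) at SNP 5. The departure from 0.5 was smaller than the SD between animals at SNPs 1, 2, 3 and 5, and about equal to it at SNP 4.

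At SNP 4 the reference share was 0.496 in RS902, 0.501 in RS917, 0.545 in RS920, 0.523 in RS929, 0.520 in RS940, 0.578 in RS943 and 0.588 in RS947. The reference allele was the higher in 6 of 7 animals, and RS943 and RS947 stood above the other 5. The largest count difference was in RS947, with 6802 reference and 4774 alternate reads.

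At SNP 1 the reference share was 0.478 in RS902, 0.479 in RS917, 0.488 in RS920, 0.498 in RS929, 0.498 in RS940, 0.541 in RS943 and 0.543 in RS947. At SNP 2 the same animals had 0.477, 0.489, 0.516, 0.511, 0.514, 0.568 and 0.575. SNPs 1 and 2 both alter the protein, and at each of them RS943 and RS947 were again the highest and RS902 the lowest.

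At SNP 3 the reference share was 0.475 in RS902, 0.505 in RS903, 0.480 in RS917, 0.516 in RS920, 0.505 in RS929, 0.499 in RS940, 0.565 in RS943 and 0.566 in RS947. At SNP 5, with 10 heterozygous animals, the lowest share was 0.428, the median animals lay at 0.501 and the highest share was 0.567. The lowest was RS969, with 4876 reference and 6514 alternate reads, and it was heterozygous at no other UCP1 SNP. The highest was RS947. RS919, with 8028 and 7980 reads, and RS926, with 7586 and 7693, expressed both alleles nearly equally.

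**Figure D1:**
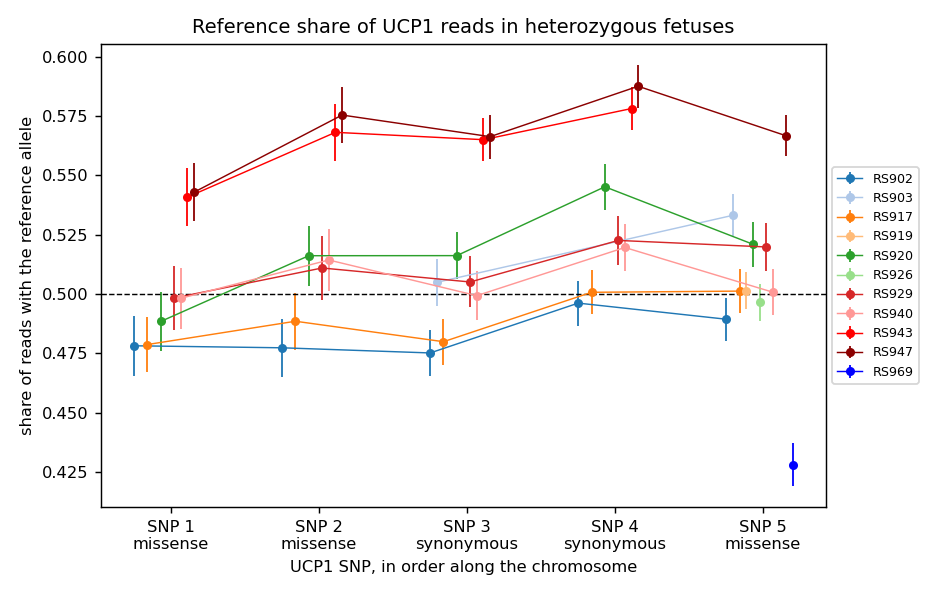
Share of UCP1 reads with the reference allele (vertical axis) at each of the 5 SNPs (horizontal axis), 1 colour per heterozygous fetus, with bars for 95% Wilson intervals, lines joining the SNPs of a fetus and a dashed line at 0.5. RS943 and RS947 run above the others at SNPs 1 to 4, and RS969 lies at 0.428 at SNP 5.

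Single animals were measured precisely at this depth. The 95% Wilson interval of the share lay above 0.5 in 18 of the 39 values, below 0.5 in 7 and across it in 14. These values are repeated readings of 11 fetuses, and the 9 values of RS943 and RS947 were all among the 18. At SNP 4 the interval ran from 0.579 to 0.597 in RS947 and from 0.487 to 0.506 in RS902, so that these animals did not overlap. At SNP 5 it ran from 0.419 to 0.437 in RS969. Intervals cover counting error only, and they take each read as an independent molecule. Reads without molecular identifiers need not be independent molecules, so the intervals may be too narrow.

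The Poisson likelihood ratio test (LRT) on reads summed over heterozygous animals, with Benjamini-Hochberg adjustment over all tested SNPs, called 4 of the 5 UCP1 SNPs, all with the reference allele higher. Over all 24244 tested SNPs it called 38.0%, with 28.9% showing the reference allele higher and 9.01% the alternate allele higher, and among the 509 SNPs with at least 1000 reads per heterozygous animal it called 80.7%. The share of UCP1 SNPs called was near that of the other deeply read SNPs. The adjusted p was 4.7e-88 at SNP 4, 9.0e-20 at SNP 2, 4.8e-17 at SNP 3, 0.00044 at SNP 5 and 0.22 at SNP 1. This test treats the reads of different animals as a single sample. With 0.519, the median share of all tested SNPs, in place of 0.5, SNPs 2 and 3 lost their calls (LRT adjusted p = 0.19 and 0.16), SNPs 1 and 5 were called with the alternate allele higher, and SNP 4 was still called with the reference allele higher.

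With animals as the replicates, in a moderated quasi-binomial F test over all SNPs (limma), 1 of 5 UCP1 SNPs was called, against 24.5% of all SNPs and 65.1% of those with at least 1000 reads. SNP 4 had an adjusted p of 0.0046, and it lost the call where the dispersion of that SNP alone was used or where the median share of all SNPs replaced 0.5. Without RS902 or without RS917 this test called 2 SNPs. SNPs 1, 2, 3 and 5 had adjusted p of 0.76, 0.090, 0.21 and 0.67 in the same limma test. The exact two-sided sign-flip permutation test on the shares of SNP 4 gave p = 0.047, and 0.23 after adjustment over the 5 SNPs, where 7 animals allow no p under 0.016. In the same exact permutation test SNPs 1, 2, 3 and 5 gave unadjusted p of 0.75, 0.22, 0.33 and 0.58.

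Measured by size, the imbalance of UCP1 was ordinary or small. The share at SNP 4 was 0.0369 from 0.5, and 46.7% of all tested SNPs were farther from it. The other UCP1 SNPs were exceeded by 64.6% (SNP 2), 75.2% (SNP 3), 90.5% (SNP 5) and 93.6% (SNP 1) of tested SNPs. The median distance over all tested SNPs was 0.0339. Among the 496 SNPs with at least 1000 reads per heterozygous animal and at least 5 such animals, the median distance was 0.0257. Of these, 35.5% were farther than SNP 4, 54.0% than SNP 2, 70.0% than SNP 3, 89.1% than SNP 5 and 91.9% than SNP 1.

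The fetuses differed in UCP1 allele share beyond the counting error of independent reads at every UCP1 SNP. Both the test and the dispersion given here treat each read as an independent molecule. A Pearson chi-square test of equal shares over animals, adjusted over all SNPs, called 5 of 5, against 15.4% of all SNPs and 54.4% of those with at least 1000 reads. The dispersion, which is 1 where counting error alone acts, was 18.9, 36.4, 51.5, 58.1 and 59.3 at SNPs 1 to 5, with a median of 1.41 over all SNPs and of 3.13 over the 496 deeply read ones. Dispersion grows with depth, so the SD of the shares was compared as well. It was 0.0273 to 0.0372 at the UCP1 SNPs and had a median of 0.0193 at the deeply read SNPs, of which 15.7% to 26.4% were more variable than a UCP1 SNP. These SNPs were not matched in depth. They start at 1000 reads, where counting error adds more to the SD, and the UCP1 SNPs had 6095 to 11968 reads per heterozygous fetus.

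**Figure D2:**
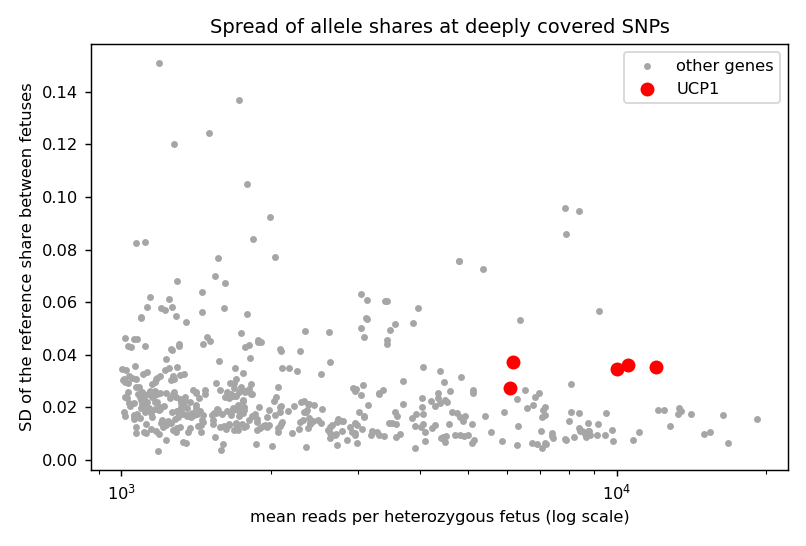
SD between fetuses of the reference share (vertical axis) against mean reads per heterozygous fetus (horizontal axis, log scale) for SNPs with at least 1000 such reads and at least 5 heterozygous fetuses, with UCP1 in red and other genes in grey. The 5 UCP1 SNPs lie between 0.0273 and 0.0372, above the median of 0.0193 and below the most variable SNPs.

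RS943 and RS947 carried much of the pooled imbalance. Without these animals, which were chosen after their shares were seen, the mean share was 0.488 ± 0.00990 (SD, n = 5) at SNP 1, 0.501 ± 0.0175 (n = 5) at SNP 2, 0.497 ± 0.0159 (n = 6) at SNP 3, 0.517 ± 0.0196 (n = 5) at SNP 4 and 0.499 ± 0.0301 (n = 9) at SNP 5. The LRT then called 2 SNPs. SNP 4 still had the reference allele higher, and SNP 1 had the alternate allele higher, with an LRT adjusted p of 0.00012. SNP 5 also lost its call when RS947 alone (LRT adjusted p = 0.49) or RS903 alone (LRT adjusted p = 0.15) was left out, and SNP 1 gained one without RS902, RS917 or RS920. The departure from 0.5 at SNP 2 was 0.0130 without RS947 and 0.0142 without RS943, and at SNP 3 it was 0.00735 and 0.00722, and both SNPs kept their calls.

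The share also differed from SNP to SNP inside the same animals. Of the 10 pairs of UCP1 SNPs, 7 differed in an exact two-sided sign-flip permutation test over animals heterozygous at both, adjusted over the 10 pairs. SNP 4 exceeded SNP 1 by 0.0321 ± 0.0145 (SD, n = 7), SNP 2 by 0.0142 ± 0.00768 and SNP 3 by 0.0204 ± 0.00477, in 7 of 7 animals each time (exact permutation test, adjusted p = 0.039). SNP 2 exceeded SNP 1 by 0.0179 in 6 of 7 animals (exact permutation test, adjusted p = 0.045). SNP 3, only 59 bp from SNP 2, differed from it by -0.00627 and was higher in 1 of 7 animals (exact permutation test, adjusted p = 0.045). The differences between SNPs of an animal were thus of the same order as the pooled departure from 0.5, although the order of the animals was similar at each SNP. Which allele at one SNP lies on the same chromosome copy as which allele at the next was not determined.

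Read depth differed along the gene. Relative to SNP 5, depth was 0.556 ± 0.0521 (SD, n = 18) at SNP 1, 0.567 ± 0.0319 at SNP 2, 0.910 ± 0.0342 at SNP 3 and 0.990 ± 0.0553 at SNP 4. SNPs 2 and 3 differed in depth despite lying within a read length of each other.

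UCP1 was among the most deeply read genes of the tissue. Depth at a base does not depend on gene length, so the deepest SNP of each gene was compared, in mean reads per animal. UCP1 had 13005 at SNP 5 and was 5th of 5810 genes. Above it were ADIPOQ (19024), which encodes the adipocyte hormone adiponectin, COX4I1 (16784), a subunit of cytochrome c oxidase, and the ribosomal protein genes RPLP0 (15129) and RPL19 (13326). Genes below it included RPL31 (11651), a ribosomal protein gene, GAL-1 (10784), ATP5A1 (10104), a subunit of ATP synthase, and FTH1 (9753), the heavy chain of ferritin. Reads at UCP1 SNPs made up 1.22% of the reads at all SNPs. Brown adipocyte markers other than UCP1 were also read, with CIDEA, PPARGC1A, DIO2 and EBF2 in the table and a summed level of 231 to 328 RPM, where RPM stands for reads per 1000000 reads at SNPs of other genes. The table lists only genes with qualifying SNPs, so a gene missing from it says nothing about its expression.

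The level of UCP1 varied 2.95-fold between fetuses, as the mean RPM over its 5 SNPs. It was lowest in RS953, at 1385, had a median of 2505 and was highest in RS905, at 4091. The mean was 2492 ± 671 (SD, n = 18). Most animals formed a continuous series, with the extreme animals at either end standing apart from their neighbours, RS917 at 1744 and RS930 at 3331. The SD of the log2 level was 0.39, against a median of 0.20 over 3585 genes with adequate depth, and 6.64% of them were more variable. In bulk tissue, fewer brown adipocytes and less UCP1 RNA per cell cannot be told apart.

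**Figure D3:**
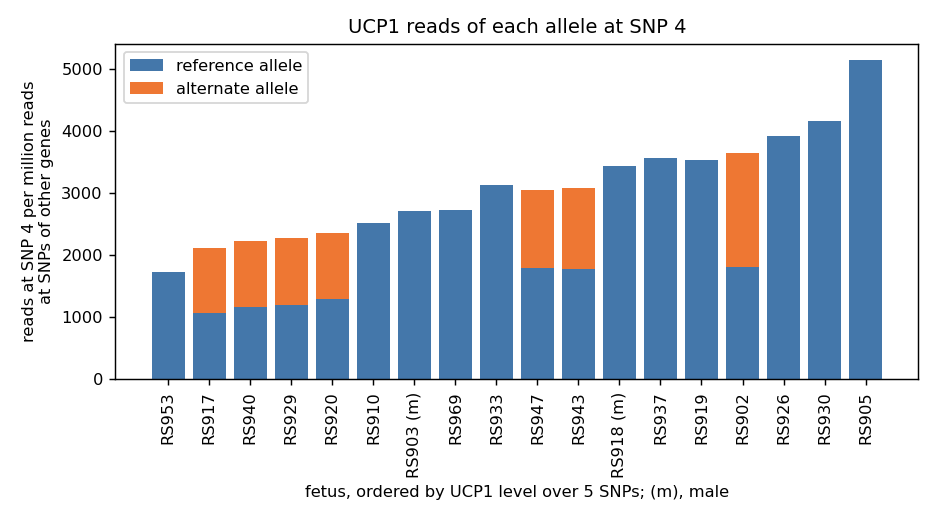
Level at UCP1 SNP 4 in RPM, scaled to reads at SNPs of other genes (vertical axis), split by allele, for the 18 fetuses (horizontal axis) ordered by UCP1 level, with (m) for males. The 7 heterozygous fetuses show both colours, and those of RS943 and RS947 are visibly unequal.

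The level did not differ detectably between genotype calls. The 7 animals heterozygous at SNPs 1, 2 and 4 ranged from 1744 to 3089 with a median of 1942 RPM, and the 11 homozygotes from 1385 to 4091 with a median of 2727. The groups overlapped over the whole range of the heterozygotes, and the log2 difference of heterozygotes from homozygotes was -0.23 (exact permutation test, two-sided, p = 0.24, adjusted p = 0.36 over 3 tests). It was -0.25 at SNP 3 (8 against 10 animals, exact permutation test, p = 0.18, adjusted p = 0.36) and -0.18 at SNP 5 (10 against 8, exact permutation test, p = 0.36, adjusted p = 0.36). The difference at SNP 5 was -0.0802 without RS905 and -0.30 without RS953, with adjusted p of 0.66 and 0.073 in the same exact permutation test. RS902, RS943 and RS947, at 3089, 2639 and 2515, were the highest of the 7 heterozygotes in level, and they held both the lowest and the highest allele shares.

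The males had 2149 and 2727 RPM and the females 1385 to 4091, with a median of 2505. Both males lay inside the female range, with a log2 difference of males from females of 0.0080 (exact permutation test over 153 arrangements, two-sided, p = 0.98). With 2 males, the smallest p the test allows is 0.0065. The grouping followed the labels, so RS929, whose X heterozygosity lay between those of the males, was counted as female.

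The 5 genes with the highest Spearman correlation of level with UCP1 over the 18 fetuses were TOMM5 (0.847), a subunit of the translocase of the outer mitochondrial membrane, OGDH (0.794), an enzyme of the citric acid cycle, ACSL1 (0.789), which activates long-chain fatty acids, MTCH2 (0.775), a carrier homologue of the outer mitochondrial membrane, and TIMM22 (0.775), which inserts carrier proteins into the inner membrane. The lowest were S100A10 (-0.833), PRRC2B (-0.831) and ZNF34 (-0.806). The Pearson correlation of log2 levels was 0.801 for TOMM5, 0.777 for OGDH, 0.825 for ACSL1, 0.637 for MTCH2 and 0.840 for TIMM22. Without RS953 and RS905, the animals farthest from the median, it was 0.732, 0.727, 0.758, 0.684 and 0.711. These genes were the extremes of 3585 compared, whose median correlation was -0.0795, and all values share the same library totals, so they are given as a description. With levels scaled by size factors, 2 of the 5 highest remained among the 5, while the Spearman correlation was 0.866 for TOMM5, 0.794 for OGDH, 0.812 for ACSL1 and MTCH2 and 0.783 for TIMM22.

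**Figure D4:**
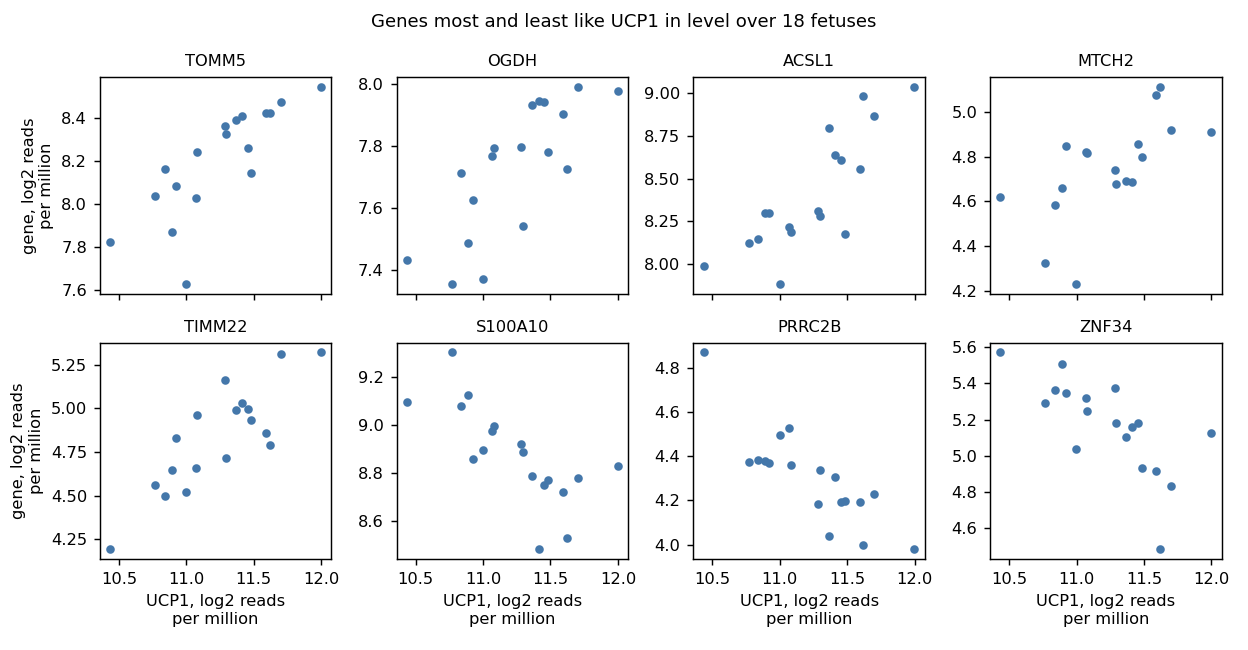
Log2 RPM of each named gene (vertical axes) against that of UCP1 (horizontal axes), 1 point per fetus, for the 5 genes with the highest and the 3 with the lowest Spearman correlation among 3585. TOMM5 (0.847) was high where UCP1 was high and S100A10 (-0.833) was high where UCP1 was low.

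Summed markers of other cell types were set beside the level of UCP1. The Spearman correlation with UCP1 was 0.659 for white adipocyte markers (LEP and NNAT, 2 of 4 in the table, 30.9 to 369 RPM), -0.616 for endothelium (CDH5, VWF and KDR, 3 of 4, 167 to 244) and -0.410 for the 4 brown adipocyte markers other than UCP1. Singly these were at -0.517 (EBF2), -0.143 (CIDEA), -0.0320 (PPARGC1A) and 0.284 (DIO2). The endothelial genes singly were at -0.651 (CDH5), -0.593 (KDR) and -0.162 (VWF). Without RS953 and RS905 the Pearson correlation of log2 levels moved from -0.693 to -0.404 for endothelium. For white adipocyte markers it moved from 0.561 to 0.791. The summed correlation was 0.189 for general adipocyte markers (3 of 7, 2647 to 3846), -0.496 for the adrenal gene STAR (1 of 5 markers, 7.77 to 14.7), -0.176 for immune markers (2 of 5) and -0.0402 for stroma (5 of 5). No skeletal muscle, kidney or blood marker was in the table. Their part in the variation of UCP1 was not tested.

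Down-sampling reduced each heterozygous animal to at most 50 reads, to lessen the effect of depth on rank. Reads per SNP still varied with the number of heterozygous animals, and the study describes sampling to 50 reads at each SNP. UCP1 moved far down the order of genes by AI. It ranked 280 of 5795 genes without down-sampling, with 4.81% of genes ranked higher, and 4092 with it, with 70.6% ranked higher. The SD of its rank between the 20 rounds was 867.

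UCP1 acts within a pathway whose genes were described from lists. Adrenergic and cAMP signalling carries the cold signal to the adipocyte, and 10 of its 23 listed genes were in the table. By the LRT 39 of 69 SNPs were called, 35 with the reference and 4 with the alternate allele higher, against 38.0% of all tested SNPs called, 28.9% and 9.01% by direction. PRKAR1A, ADCY6 and AKAP1 held 15, 12 and 10 of the 69 SNPs. Because SNPs of a gene share animals and reads, these calls are not separate members. The median distance from 0.5 was 0.0327, against 0.0339 over all tested SNPs. GNAS, the stimulatory G protein subunit and a known imprinted gene, was the deepest at 5297 reads, with 0.557 of reads from the reference allele and a dispersion of 116 at its strongest SNP. PDE3B, a phosphodiesterase, had 0.550, AKAP1, an anchor of protein kinase A at mitochondria, had 0.578, and ADCY6, an adenylate cyclase, had 0.599. All 4 strongest SNPs passed the LRT and the quasi-binomial test, but each was picked as the strongest of its gene, which favours passing. Of all their SNPs the quasi-binomial test called 1 of 3 in GNAS, 3 of 9 in PDE3B, 3 of 10 in AKAP1 and 4 of 12 in ADCY6. It called 24.5% of SNPs over all genes.

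Lipolysis and fatty acid supply provide the activators and fuel of UCP1. Of 23 listed genes 16 were in the table, and the LRT called 39 of 57 SNPs, 31 with the reference and 8 with the alternate allele higher, beside 38.0% called over all tested SNPs (28.9% and 9.01% by direction). Many of these calls came from PLIN4 (8 of 10 SNPs), GPIHBP1 (8 of 9) and CPT1A (5 of 9). SNPs of a gene share animals and reads, so the calls are not separate members of the list. The median distance of the 57 SNPs was 0.0405, beside 0.0339 over all. PLIN1, which coats the lipid droplet, had 0.533 at its strongest SNP. PLIN4, of the same family, had 0.688, and GPIHBP1, which carries lipoprotein lipase to the capillary wall, had 0.843. ACSL1, whose level went with that of UCP1, had 0.530 and was called by the LRT (adjusted p = 6.0e-06) but not with animals as replicates (quasi-binomial test in limma, adjusted p = 0.12).

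Among mitochondrial carriers, the protein family of UCP1, 13 of 25 listed genes were in the table, UCP1 included, and the LRT called 22 of the 39 SNPs of the other members, 12 with the reference and 10 with the alternate allele higher, where 38.0% of all tested SNPs were called, 28.9% and 9.01% by direction. SLC25A34 alone held 12 of these 39 SNPs, and the LRT called all 12. SNPs of a gene share animals and reads, so these calls are not separate members. The median distance over the 39 SNPs was 0.0549, where that of all tested SNPs was 0.0339. UCP2, a relative of UCP1, had a mean share of 0.552 ± 0.100 (SD, n = 7) at its strongest SNP, with 2 of 3 SNPs called by the LRT and 0 of 3 with animals as replicates. SLC25A20, the carnitine carrier, had 0.519, SLC25A1, the citrate carrier, had 0.608, and SLC25A11, the oxoglutarate carrier, had 0.503 and was not called. SLC25A3, the phosphate carrier, had only 0.0957 of reads from the reference allele.

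Among thermogenic regulators and brown fat markers, 12 of 29 listed genes were in the table, UCP1 included, and the LRT called 29 of the 47 SNPs of the others, 13 with the reference and 16 with the alternate allele higher. Over all tested SNPs 38.0% were called, 28.9% and 9.01% by direction. PDK4, with 16 of 16 SNPs called, and ESRRA, with 7 of 8, supplied most of the calls in the list, and SNPs of a gene share animals and reads. The median distance was 0.0662 in the list and 0.0339 over all tested SNPs. ESRRA, a nuclear receptor that drives mitochondrial genes, had 0.847 of summed reads, with a mean share over animals of 0.787 ± 0.222 (SD, n = 13). PDK4, a kinase that restrains pyruvate oxidation, had 0.654, and all 16 of its SNPs were called by the LRT but 7 of 16 with animals as replicates. CPT1B, which admits fatty acids to mitochondria, had 0.882. EBF2, a brown adipocyte transcription factor, had 0.538, and CIDEA, a lipid droplet protein, had 0.482 and was not called (LRT adjusted p = 0.066).

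The genes of the table within 1 Mb of UCP1 were ZNF330, RNF150, TBC1D9 and MGST2. The LRT called 2 of 11 SNPs in ZNF330, 0 of 2 in RNF150 and 0 of 2 in TBC1D9, at 23.6 to 100.4 reads per heterozygous animal, and animals as replicates gave 0 calls in these genes. Over all SNPs the LRT called 38.0%, and the test with animals as replicates called 24.5%. The neighbours held few SNPs, and SNPs of a gene share animals and reads. A RNF150 SNP was heterozygous in the same 7 animals as UCP1 SNPs 1, 2 and 4, with a mean share of 0.545 ± 0.129 (SD, n = 7) at 33.6 reads. RS943 at 0.696 and RS947 at 0.640 had the highest shares of the 7 there, but the Wilson intervals of both covered 0.5 (0.491 to 0.844 and 0.445 to 0.798). MGST2, a microsomal glutathione transferase gene, had 3 of 3 SNPs called by both tests, with the reference allele at 0.567 to 0.630 of reads. At its SNP at position 17726532, RS943 had a reference share of 0.741 (95% Wilson interval 0.653 to 0.813) and RS947 of 0.722 (0.659 to 0.778), the highest of 7 heterozygous animals, as at UCP1. The others were RS902 at 0.554, RS917 at 0.624, RS929 at 0.622, RS953 at 0.492 and RS969 at 0.571, and the intervals of some of them overlap those of RS943 and RS947. Position 17697873 was heterozygous in 8 animals, RS943 and RS947 among them. There RS947 was the highest at 0.678, but RS943 at 0.635 lay below RS929 at 0.667 and RS940 at 0.643.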

How the data were processed

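PRAT RNA of 18 fetuses was sequenced as 100 bp paired end reads. The authors aligned reads to Oar v3.1 with STAR, called genotypes with GATK 3.4-46 from the same reads (both named in the submitters' processing notes), and deposited raw counts of reference and alternate allele reads per SNP and animal, without normalization. All 24355 SNPs met a minimum of 10 reads for both alleles in 5 or more animals. The table also holds the authors' own test statistics, P-values, higher allele and pooled reference share, which were not used. The column named PS910 was matched to the sample titled RS910. No pair of libraries agreed within sampling noise (chi-square per degree of freedom at least 3.77 over 153 pairs).

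Reads of heterozygous animals were summed for the LRT, and dispersions were moderated with limma 3.58.1 in R 4.3.3 for the quasi-binomial test. Permutation tests and Wilson intervals were computed with scipy 1.17.1. Both tests across SNPs were tested on simulated data. Levels were scaled by reads at SNPs of other genes, with size factors and the study's uniquely mapped pairs as alternatives. Down-sampling used 50 reads and 20 rounds. Adjusted p under 0.05 counted as a call. Genes named were the 5 most and 3 least correlated with UCP1 in level (median of at least 50 reads per SNP), the up to 4 deepest genes of each list and list genes whose strongest share was beyond 0.2 to 0.8, neighbours within 1 Mb, and the 5 genes on either side in depth, of which those above number fewer and 1 below is not reported here. The members and lists were chosen with earlier results of these data known. The samples are separate fetuses with a common sire. No genome sequence of this build was used here.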

Additional observations from a re-analysis of the deposited data

How the results depend on the processing

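Of 287 recomputed values, 255 kept their direction and their side of the threshold or moved little. Many of the 255 could not change. Leaving out a fetus that was not heterozygous at a SNP leaves the share there as it was. A minimum of 30 reads of each allele, another alternative, removed no fetus at a UCP1 SNP. The number of UCP1 SNPs called by the LRT was 4, between 3 and 5 when single fetuses were left out, and 2 without RS943 and RS947. It was 3 against the median share of all SNPs as the null, SNP 4 with the reference and SNPs 1 and 5 with the alternate allele higher. With animals as replicates it was 1, 0 against the median share of all SNPs as the null, 0 with the dispersion of each SNP alone, and 1 to 2 when single fetuses were left out, with 2 without RS902 or RS917. Against the median share of all tested SNPs, 0.519, the departure was -0.0147 at SNP 1 and -0.0129 at SNP 5, both called, and -0.00317 at SNP 3 and 0.00403 at SNP 2, neither called. Without RS943 and RS947 the departures were -0.0122 at SNP 1, 0.000553 at SNP 2, -0.00387 at SNP 3 and -0.00147 at SNP 5. Leaving out single fetuses gave -0.00303 to 0.00873 at SNP 1, reversed without RS943 or RS947, 0.0130 to 0.0304 at SNP 2, 0.00722 to 0.0215 at SNP 3, and -0.00147 to 0.0138 at SNP 5, reversed without RS947 and not called without RS903 (LRT adjusted p = 0.15). SNP 4 kept its call by the LRT under every alternative run. The number of heterogeneity calls was 5 whichever fetus was left out, and 7 differences between SNPs were also called on log odds, the 1 alternative run. The rank of UCP1 was 280 without down-sampling, and 3544 to 4022 with other depths or seeds. The log2 difference between sexes was -0.00306 with size factors, -0.00920 with uniquely mapped pairs and -0.164 to 0.180 when single fetuses were left out. With size factors, 2 of the 5 genes most like UCP1 were the same. The cause of these changes was not tested.

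Genotypes were called from RNA, and no DNA genotype was used here. The shares rest on 7 to 10 heterozygous fetuses per SNP, so the number of animals and not the read depth limits their precision, and after adjustment over 5 SNPs the exact test called none, with 1 at an unadjusted p under 0.05.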
